A study of Homo sapiens with 8 samples.

Results

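TOX and LUZP2 are 2 of the 27696 genes counted in recipient IMR90 fibroblasts, and they were chosen by their gene symbols because their transcripts had been seen to fall with the day of the conditioned medium. Both passed the filter on low counts, so both members were measured. Their changes from D0 to D4, D7 and D10 are therefore a description, and no test is given for them. The working description of the pair was a steep early fall. On the log2 scale the data fit that description for TOX, which had reached 66.5% of its mean D10 change at D4, more closely than for LUZP2, which had reached 40.7%. This difference within the pair was not tested.

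IMR90 cells are primary fibroblasts of the human embryonic lung. The recipient cells were normal IMR90 fibroblasts, which spent 3 days in conditioned medium. The medium came from IMR90 ER:RAS fibroblasts, a derivative that carries an ER:RAS cassette, in which the RAS oncogene product is switched on by 4-OHT (4-hydroxytamoxifen) and the cells then become senescent. It was collected from these donors at day 0, 4, 7 or 10 of 4-OHT, and the recipient groups are named D0, D4, D7 and D10. Every group, D0 included, received medium from ER:RAS donors, so D0 is medium from the same type of donor cells before induction and no group without conditioned medium was analysed here. Each group holds 2 libraries of poly(A) RNA from 2 independent experiments, which gives 8 libraries with 11708193 to 13395912 counts each. The comparison asks how recipient gene expression follows the time course of secretion by the donors. Expression is given as CPM, in which edgeR scales counts by the TMM-normalized library size. In bulk RNA, fewer cells that make a transcript and less of it per cell cannot be told apart.

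TOX encodes a nuclear protein with an HMG box, a DNA-binding domain, and is best known from the thymus, where it is needed for the development of CD4 T cells, and from exhausted CD8 T cells, where calcineurin and NFAT induce it. TOX2, TOX3 and TOX4 are its paralogs. LUZP2 encodes a leucine zipper protein whose transcript is known mostly from the brain and spinal cord, and its molecular role is poorly defined. Neither gene is a standard fibroblast marker.

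TOX (ENSG00000198846.5, GENCODE 29) spans 313.791 kb and has 1 annotated transcript with 9 exons and 4131 exon bases. LUZP2 (ENSG00000187398.11) lies on the plus strand of chromosome 11 from 24496970 to 25082631 (GRCh38, GENCODE 29). It spans 585.662 kb, and its 8 annotated transcripts cover 8851 exon bases. Both are long genes, TOX longer than 96.7% and LUZP2 longer than 99.2% of the 13771 tested genes with an annotated span.

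The LUZP2 promoter is shown because the gene moved with TOX and others across the libraries. These are the 167 bases just upstream of the first annotated start of LUZP2 (chr11:24496803-24496969, plus strand, GRCh38.p14, RefSeq).
LUZP2: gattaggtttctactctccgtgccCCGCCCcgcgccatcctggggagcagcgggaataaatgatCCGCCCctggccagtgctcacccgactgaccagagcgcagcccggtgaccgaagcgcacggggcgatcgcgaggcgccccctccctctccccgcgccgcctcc
Capitals mark the 2 matches to the GC box GGGCGG, read here on the opposite strand. At least 1 GC box, on either strand, is held by 45.0% of 35116 promoter windows of 300 bases in the same set, so this feature is common. G and C make up 70.7% of the printed bases. The LUZP2 window of 300 bases also covers bases downstream of the first annotated start, which are not printed. G and C make up 71.7% of this window, against a median of 58.7% over all windows. The motifs AP-1 (TGANTCA), the E-box (CANNTG), the NFAT core (GGAAA), the SMAD core (CAGAC), TEAD (GGAATG) and the TATA box (TATAAA) had no match on either strand of the LUZP2 window, and the CRE core (TGACG) had 1, outside the printed stretch. Over all windows the share with a match was 7.71% for AP-1, 11.5% for the TATA box, 14.0% for TEAD, 24.6% for the CRE core, 45.3% for the SMAD core, 61.2% for the NFAT core and 68.7% for the E-box. The motifs were chosen after the sequence had been seen, and a missing match says only that these letters are not in the window.

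TOX had 176 counts at D0 in experiment 1 and 227 in experiment 2. The later groups had 40 and 59 (D4), 35 and 39 (D7) and 22 and 22 counts (D10). These correspond to 14.7 and 16.5 CPM at D0, 3.10 and 4.40 CPM at D4, 2.67 and 2.96 CPM at D7, and 1.74 and 1.74 CPM at D10. Both D0 libraries stood above all 6 libraries of the later days, and the order D0, D4, D7, D10 held within each experiment. The D4 and D7 libraries do not overlap, but they lie close together, with 3.10 CPM as the lower D4 library and 2.96 CPM as the higher D7 library.

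The largest step of TOX came between D0 and D4. At D4 TOX stood at 21.0% of its D0 level in experiment 1 (95% exact interval from the counts, 14.5 to 29.8) and at 26.6% in experiment 2 (19.6 to 35.6). At D7 it stood at 18.1% and 17.9%, and at D10 at 11.8% and 10.5% of D0, in experiments 1 and 2. As a fold, TOX was 8.47-fold lower at D10 than at D0 in experiment 1 (5.42 to 13.9) and 9.52-fold lower in experiment 2 (6.14 to 15.5). The mean log2 change from D0 was -2.03 ± 0.23 at D4, -2.41 ± 0.016 at D7 and -3.06 ± 0.12 at D10 (SD, n = 2 experiments). The intervals in parentheses treat reads as independent counts, though they are not independent molecules, and leave out the variation between experiments.

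After D4 the steps of TOX were smaller, and TOX was lower at each later day in both experiments. From D4 to D7 TOX went to 86.1% of its D4 level in experiment 1 (53.1 to 139) and to 67.3% in experiment 2 (43.7 to 103). From D7 to D10 it went to 65.2% (36.4 to 114) and 58.6% (33.1 to 101). Over D4 to D10 together, TOX went to 56.1% (31.8 to 96.7) and 39.4% (23.0 to 65.4).

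In experiments 1 and 2, the counts of LUZP2 were 101 and 122 (D0), 37 and 50 (D4), 25 and 24 (D7) and 10 and 8 (D10). These correspond to 8.46 and 8.88 CPM at D0, 2.87 and 3.73 CPM at D4, 1.91 and 1.82 CPM at D7, and 0.792 and 0.631 CPM at D10. No 2 groups overlap, and the levels followed the order of the days in both experiments.

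The fall of LUZP2 was spread more evenly over the days. At D4 LUZP2 stood at 33.9% of its D0 level in experiment 1 (22.6 to 49.9) and at 42.0% in experiment 2 (29.6 to 58.8). At D7 it stood at 22.6% and 20.5%, and at D10 at 9.35% (4.35 to 17.9) and 7.11% (3.00 to 14.4). The D10 level was 10.7-fold lower than D0 in experiment 1 (5.58 to 23.0) and 14.1-fold lower in experiment 2 (6.92 to 33.3), with few counts behind each value. The mean log2 change from D0 was -1.36 ± 0.21 at D4, -2.13 ± 0.092 at D7 and -3.36 ± 0.24 at D10 (SD, n = 2 experiments).

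LUZP2 kept falling between D7 and D10. From D7 to D10 it went to 41.5% of its D7 level in experiment 1 (17.8 to 89.4) and to 34.6% in experiment 2 (13.4 to 79.7). From D4 to D7 it went to 66.5% (38.4 to 113) and 48.9% (28.7 to 81.1). The mean log2 step was -0.76 ± 0.30 from D4 to D7 and -1.23 ± 0.15 from D7 to D10. The same steps of TOX were -0.38 ± 0.24 and -0.65 ± 0.10.

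**Figure D1:**
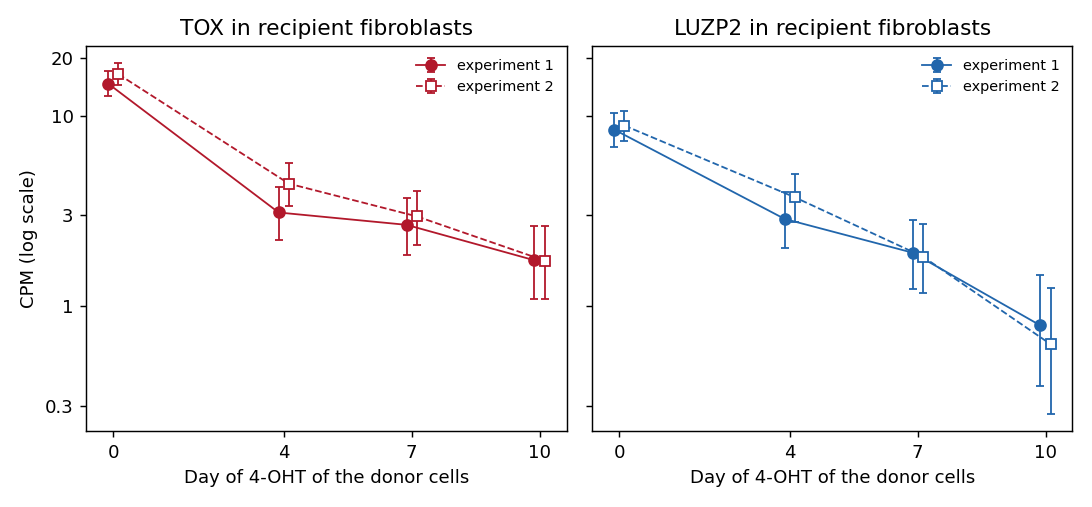
TOX (left) and LUZP2 (right) in CPM on a log axis against the day of 4-OHT of the donor cells, with 1 point per library, filled for experiment 1 and open for experiment 2, and bars for the 95% exact counting interval. TOX drops from 14.7 and 16.5 CPM to 3.10 and 4.40 CPM by D4 and then declines slowly, while LUZP2 declines at each day to 0.792 and 0.631 CPM at D10.

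The share of the D10 change reached on an earlier day puts the time courses on a common scale. On log2 CPM, TOX had reached 73.7% of its D10 change at D4 in experiment 1 and 59.6% in experiment 2, and 80.6% and 77.0% at D7. LUZP2 had reached 47.4% and 34.6% at D4, and 64.7% and 62.2% at D7. The lowest TOX share thus lies above the highest LUZP2 share on each day. No interval is given for the shares, and the difference between the genes was not tested. The 95% counting intervals of the D4 level in percent of D0 overlap between the genes. They are 14.5 to 29.8 for TOX and 22.6 to 49.9 for LUZP2 in experiment 1. In experiment 2 they are 19.6 to 35.6 and 29.6 to 58.8. Measured as a share of the fall in CPM, which weighs the first losses more, TOX had reached 89.5% and 82.0% at D4 and 92.8% and 91.7% at D7, and LUZP2 72.9% and 62.5% at D4 and 85.4% and 85.6% at D7. On this scale both genes had lost most of their D0 transcript by D4, and the order of the pair was the same.

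**Figure D2:**
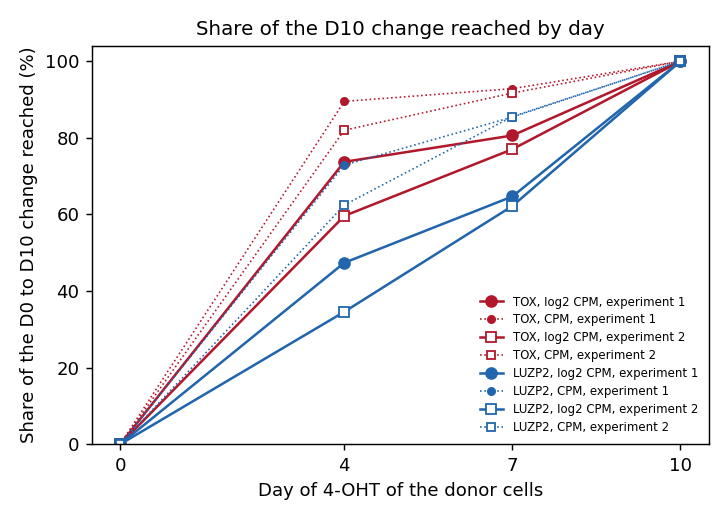
Share of the change between D0 and D10 that TOX (red) and LUZP2 (blue) had reached at D4 and D7, in percent, for experiment 1 (filled) and experiment 2 (open). Solid lines use log2 CPM and dotted lines CPM, D0 is 0% and D10 is 100% by definition, and on log2 CPM the TOX lines at D4 (73.7% and 59.6%) lie above those of LUZP2 (47.4% and 34.6%).

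Per annotated exon length, TOX had the higher level on every day. Divided by the exon length of the annotated transcripts, the D0 level was 3.57 and 4.00 CPM per kb for TOX and 0.956 and 1.00 CPM per kb for LUZP2. At D10 it was 0.422 and 0.420 CPM per kb for TOX and 0.0894 and 0.0713 CPM per kb for LUZP2. The exon length of LUZP2 joins all its transcripts, so its level per kb is a low estimate, and the order of the pair per kb rests on this length.

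The difference between the experiments was tested, and it was not itself used to choose the genes. Experiment 2 was higher than experiment 1 by 0.22 on the log2 scale for TOX (SE 0.18, mean CPM 6.40 against 5.57, adjusted p = 0.368) and by 0.079 for LUZP2 (SE 0.21, mean CPM 3.77 against 3.51, adjusted p = 0.795), with edgeR's quasi-likelihood test and Benjamini-Hochberg adjustment over 13798 genes. Neither passed the threshold of 0.05. In the same test 34.8% of all genes did, and the median size of the difference over all genes was 0.34. TOX and LUZP2 therefore differed less between the experiments than the typical gene, with 33.0% of genes below the difference of TOX and 12.1% below that of LUZP2. The pair is among the genes lower past the threshold at D10 in a fit without the experiment, where such a difference adds to the spread. This comparison is therefore not independent of the choice of the genes.

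Among the 10309 genes with a D0 mean of at least 5 CPM, TOX had rank 9 in the fitted fall at D4, rank 9 at D7 and rank 12 at D10. LUZP2 had rank 44 at D4, rank 15 at D7 and rank 8 at D10, so it moved up the order as the days went on while TOX stayed near the top. Placed just before TOX at D4 were LMCD1, a LIM domain protein, with a fitted log2 fold change of -2.10, and PLXNC1, a semaphorin receptor, with -2.13, against -2.06 for TOX. FGF9, a fibroblast growth factor, had -2.27, GUCY1B3, a subunit of soluble guanylate cyclase, -2.30, WNT2, a WNT ligand, -2.33, HTR2B, a serotonin receptor, -2.46 and RASGEF1B, an exchange factor for RAS family proteins, -2.95. Just after TOX came ELOVL2, a fatty acid elongase, with -2.01, the cytokine IL16 with -1.95 and the glycosyltransferase B3GALT2 with -1.93. Around LUZP2, with -1.39, the order held KCND3, STOX2, ISOC1, KCTD16, ARHGAP28, CORIN and ADAMTS1 from -1.46 to -1.39 and then ADAMTS15, ROR2 and ANGPT1 from -1.39 to -1.37. At D10 the fitted log2 fold changes of PLXNC1, GUCY1B3, ELOVL2 and IL16 were smaller in size than at D4, with fitted D4 values at 107%, 113%, 142% and 199% of those at D10, against 65.0% for TOX.

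With edgeR's quasi-likelihood test, 0% of the 13798 tested genes were past the threshold at D4, 0% at D7 and 0.29% at D10, and 0.0942% were lower at D10. Unadjusted p-values under 0.05 numbered 409, 599 and 1095, and DESeq2 called 44, 113 and 383 genes. TOX and LUZP2 are among the 13 genes lower at D10, which follows from how they were chosen. This set comes from the fit without the pairing of the experiments. The replicate block called 38 (D4), 172 (D7) and 688 (D10) genes, and 338 of the last were lower (2.45% of all genes), so the ranks among the 13 hold for this smaller set alone. The other 11 are TNNT2, GCNT4, ADAMTS15, ACTA2, TPD52L1, OPN3, SH2D4A, PMP22, BAMBI, LBH and NREP. At D10 the fitted log2 fold change was -5.80 for TNNT2, the cardiac troponin T gene, -3.59 for LUZP2, -3.16 for TOX and -2.88 for GCNT4, an enzyme that branches O-glycans. TNNT2 had 2.77 and 2.69 CPM at D0 and 0.0792 and 0 CPM at D10, so its fold change and its share rest on values near 0. ACTA2, which encodes α-smooth muscle actin, the usual myofibroblast marker, had -2.76, and the smallest change of the 13 was -1.56 for NREP.

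At D4 the order of these 13 genes was different. TOX had the largest fitted fall of the 13 at D4 (-2.06), before TNNT2 (-1.83), BAMBI, a decoy receptor of the TGF-β family (-1.70), GCNT4 (-1.54) and LUZP2 (-1.39). ACTA2 had -1.03 and NREP -0.39. In the share of the D10 change fitted at D4, BAMBI was first with 86.2% and TOX second with 65.0%, followed by PMP22, a myelin and membrane protein, with 62.9%. LUZP2 had rank 10 with 38.7%, next to ACTA2 with 37.4%, and TNNT2 and NREP came last with 31.5% and 24.8%. The pair thus took different places within the same group of genes, and the D0 libraries are shared by all 3 changes from D0, so the days are not independent of each other.

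**Figure D3:**
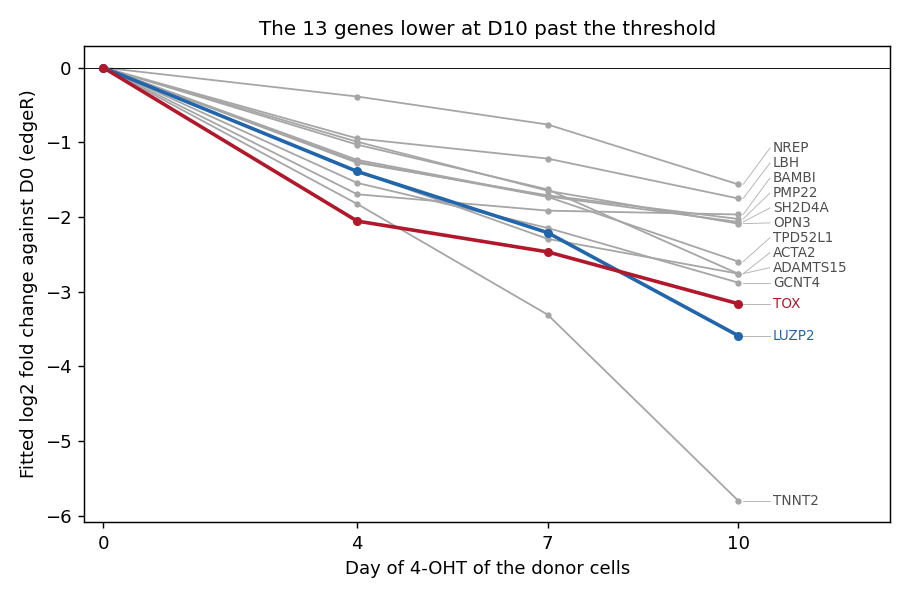
Fitted log2 fold change against D0 (edgeR, vertical axis) by day of 4-OHT of the donor cells for the 13 genes lower at D10 past the threshold, with TOX in red, LUZP2 in blue and the other 11 in grey. TOX has the largest fall of the 13 at D4 (-2.06). The line of LUZP2 crosses that of TOX between D7 and D10. At D10 LUZP2 has -3.59 (SE 0.37) and TOX -3.16 (SE 0.33), a difference that was not tested.

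The genes whose levels were most like TOX were found by Pearson's r over log2 CPM of the 8 libraries. They were AC090152.1 with r = 0.981, GPR63, an orphan G protein-coupled receptor, with 0.981, FAXC with 0.972, the zinc finger gene JAZF1 with 0.970 and SDC2, the heparan sulfate proteoglycan syndecan 2, with 0.970. Their falls were smaller than that of TOX. GPR63 went from 14.7 and 17.3 CPM at D0 to 6.60 and 8.20 CPM at D4 and 6.49 and 5.68 CPM at D10, and SDC2 from 119 and 117 CPM at D0 to 69.2 and 67.5 CPM at D4 and 57.0 and 58.4 CPM at D10. Like TOX, GPR63 and SDC2 had taken most of their change by D4.

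The genes most like LUZP2 were TPD52L1, a member of the tumour protein D52 family, with r = 0.987, SYNC, the muscle intermediate filament protein syncoilin, with 0.982, TNNT2 with 0.981, FAXC with 0.976 and RAD23B, a DNA repair protein, with 0.976. TPD52L1 went from 22.8 and 26.6 CPM at D0 to 10.3 and 10.3 CPM at D4, 8.48 and 6.38 CPM at D7 and 4.51 and 3.63 CPM at D10. FAXC stood in both lists. TOX and LUZP2 themselves had r = 0.954, which placed LUZP2 at rank 19 for TOX and TOX at rank 29 for LUZP2. The correlations are descriptions over 8 points that share their libraries and their scaling.

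TOX lies on the minus strand of chromosome 8 from 58805418 to 59119208 (GRCh38, GENCODE 29). The antisense gene AC090152.1 starts at the 5′ end of TOX, on the opposite strand, from 59119040 to 59121346. Its counts were 61 and 62 (D0), 15 and 31 (D4), 12 and 16 (D7) and 9 and 9 (D10). In experiments 1 and 2 it stood at 22.8% and 51.2% of D0 on D4 medium, 17.9% and 26.9% on D7 medium and 13.9% and 15.7% on D10 medium. Both D0 libraries stood above all later ones, and at D4 the experiments differed more than they did for TOX. The fitted log2 fold change was -1.46 (SE 0.43) at D4, -2.16 (SE 0.45) at D7 and -2.74 (SE 0.47) at D10. It missed the threshold at D10 (adjusted p = 0.0694, edgeR) and passed it with the experiment as a replicate block at D7 (adjusted p = 0.0379, edgeR) and at D10 (adjusted p = 0.00704, edgeR) and with DESeq2 at D10 (adjusted p = 0.00185). The 2 genes share 169 exon bases, 4.09% of TOX and 9.70% of AC090152.1. The libraries are stranded but the strand setting of the counting is not given in the sources used here, so reads of the shared bases cannot be assigned to either gene. The antisense gene had between 27.3 and 52.5 counts per 100 counts of TOX over the 8 libraries.

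By edgeR without the block no tested gene near TOX passed the threshold, and with the block or DESeq2 AC090152.1 alone did. Within 1 Mb of TOX the annotation holds 26 genes, of which 8 are in the table and 4 were tested. At D10, UBXN2B, an adaptor of the p97 ATPase, had a fitted log2 fold change of 0.099 (SE 0.37), SDCBP, the scaffold protein syntenin, 0.28 (SE 0.20), and NSMAF, an adaptor of the TNF receptor, 0.34 (SE 0.33), with adjusted p of 0.998, 0.981 and 0.998 in edgeR. CYP7A1, FAM110B and the pseudogenes AC009927.1 and AC068522.1 had at most 2 counts in any library. The region around LUZP2 holds 14 annotated genes, none of them protein coding, and the 1 gene in the table, the pseudogene AC015820.1, had at most 1 count. By edgeR 0 of the 4 tested neighbours were called at D4, D7 or D10. At D10, 1 had an unadjusted p under 0.05, against 1095 of all 13798 tested genes. DESeq2 called 1, against 2.59% of all genes it tested, and the replicate block called 1, against 4.99% of all tested genes. That gene was AC090152.1 each time. The replicate block called it at D7 too, against 1.25% of all genes, and called 0 of the neighbours at D4, against 0.275%.

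**Figure D4:**
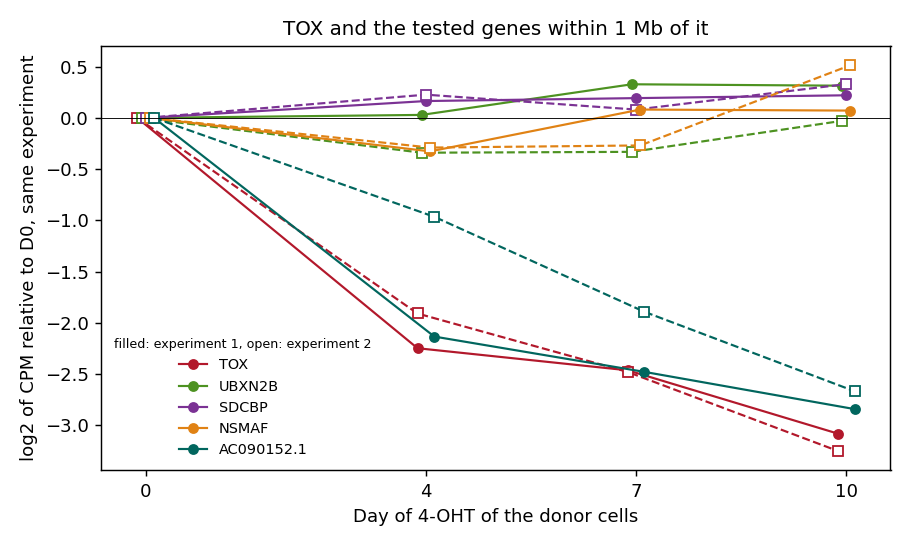
Log2 of CPM relative to D0 of the same experiment for TOX and the 4 tested genes within 1 Mb of it, by day of 4-OHT of the donor cells, filled for experiment 1 and open for experiment 2. TOX and the antisense gene AC090152.1 go down together, to 11.8% and 10.5% and to 13.9% and 15.7% of D0 at D10, while UBXN2B, SDCBP and NSMAF stay near 0.

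At D4 the median change of all genes went down with gene length. The median fitted log2 fold change at D4 was 0.084 for genes of up to 10 kb, 0.027 for 10 to 30 kb, -0.011 for 30 to 100 kb and -0.063 for 100 to 300 kb. Of the tested genes, 499 span more than 300 kb, and their median was -0.11 at D4, -0.011 at D7 and -0.0023 at D10, against 0.0088, -0.00041 and 0.0037 over all genes. Among these 499 genes, 3 were lower past the threshold at D10, against 0.0942% of all genes, and 1 was higher. Of all genes, 0.29% were called in either direction. The 3 lower genes are NREP and the pair itself, which was chosen for its falls. The replicate block called 23 of the 499 lower, against 2.45% of all genes, and 27 higher. It called 4.99% of all genes in either direction.

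No change of a TOX paralog passed the test. TOX4 had 97.3 and 89.3 CPM at D0 and 82.0 and 69.6 CPM at D10, and TOX2 had 39.2 and 26.1 CPM at D0, 60.5 and 43.5 CPM at D4 and 47.7 and 30.7 CPM at D10. The fitted log2 fold change at D10 was -0.30 (SE 0.20) for TOX4 and 0.26 (SE 0.32) for TOX2. By edgeR, with or without the replicate block, and by DESeq2, 0 of these 2 genes were called on any day, and 0 had an unadjusted p under 0.05. TOX3 was not analysed here.

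No other HMG-box protein was lower past the threshold. Of 32 listed genes, 28 were tested, and edgeR called 0 at D4, D7 and D10. At an unadjusted p under 0.05 there were 1, 2 and 3, all higher, against 409, 599 and 1095 of all 13798 tested genes. The median fitted log2 fold change of the 28 at D10 was 0.036, against 0.0037 over all genes. The largest decrease in the estimate was that of SOX4, a SOX factor of progenitor cells, with -0.53 (SE 0.44) at D10, and the largest increase that of LEF1, a transcription factor of WNT signalling, with 1.11 (SE 0.35), from 2.93 and 2.40 CPM at D0 to 5.15 and 6.39 CPM at D10. SOX9, the factor of cartilage development, had 47.5 and 43.9 CPM at D0, 102 and 108 CPM at D4 and 111 and 121 CPM at D7. Its log2 fold change at D7 was 1.35, and the replicate block called it on that day (adjusted p = 0.0169, edgeR), as the 1 call among the 28 genes, against 1.25% of all genes. DESeq2 called 1 of the 28 at D4, against 0.348% of all genes, 1 at D7, against 0.823%, and 0 at D10, against 2.59%. That gene was SOX9 on both days.

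The proteins related to LUZP2 by name, including LUZP1 and the LZTS family, gave 7 tested genes of 8 listed. By edgeR, with or without the replicate block, and by DESeq2, 0 were called on any day. At D10, 1 had an unadjusted p under 0.05, against 1095 of all 13798 tested genes. The 1 gene was LZTS1, named a leucine zipper tumour suppressor, with 25.1 and 19.4 CPM at D0, 25.2 and 29.4 CPM at D4 and 14.3 and 7.81 CPM at D10 (log2 fold change -1.01, SE 0.33). LUZP1, a protein of the actin cytoskeleton and cilia, had 107 and 116 CPM at D0 and 114 and 107 CPM at D10. The largest increase in the estimate was that of LZTS3, with 0.42 (SE 0.37).

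Calcineurin and NFAT induce TOX in T cells. The list for this axis also holds inhibitors of calcineurin, such as RCAN2, and genes that NFAT activates, such as NR4A2 and EGR3. All its genes were measured, 23 of 23. By edgeR 0 were called at D4, D7 or D10. An unadjusted p under 0.05 was held by 1, 2 and 4, all higher, against 409, 599 and 1095 of all 13798 tested genes. At D10 the replicate block called 3 of 23, against 4.99% of all genes, and DESeq2 2 of 23, against 2.59%, all higher. The median log2 fold change of the list at D10 was 0.078, against 0.0037 over all genes. The calcineurin subunits themselves lay close to D0, with log2 fold changes at D10 of -0.12 (SE 0.23) for PPP3CA, 0.096 (SE 0.21) for PPP3CB, 0.078 (SE 0.23) for PPP3CC and -0.026 (SE 0.20) for PPP3R1.

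Among the NFAT factors, NFATC1, NFATC3 and NFATC4 had log2 fold changes at D10 of 0.11 to 0.19, and NFAT5 had -0.13 (SE 0.58). NFATC2 had 0.670 and 0.728 CPM at D0, 0.621 and 1.49 CPM at D4, 1.60 and 3.19 CPM at D7 and 3.17 and 4.02 CPM at D10. Its D10 libraries stood above both D0 libraries, with a log2 fold change of 2.34 (SE 0.57, adjusted p = 0.155, edgeR). The replicate block (adjusted p = 0.0137, edgeR) and DESeq2 (adjusted p = 0.0341) called it. In experiments 1 and 2 its counts were 8 and 10 at D0 and 8 and 20 at D4, too few to place a change between these days.

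Of the genes that NFAT activates, NR4A2, an orphan nuclear receptor, had the largest fitted log2 fold change at D10. It went from 2.68 and 6.92 CPM at D0 to 13.5 and 23.9 CPM at D4, 18.3 and 53.8 CPM at D7 and 55.0 and 153 CPM at D10. The groups D0 and D4 do not overlap, and the level was higher on each later day within both experiments. Its log2 fold change at D10 was 4.43 (SE 0.78, adjusted p = 0.0744, edgeR). With the replicate block it passed the threshold at D4 (adjusted p = 0.0164, edgeR), at D7 (adjusted p = 0.00568, edgeR) and at D10 (adjusted p = 5.26e-05, edgeR), and with DESeq2 at D7 (adjusted p = 0.0011) and at D10 (adjusted p = 7.05e-10). EGR3, a zinc finger factor, had a log2 fold change of 2.30 (SE 0.76, adjusted p = 0.378, edgeR) at D10, which the replicate block alone called (adjusted p = 0.0464, edgeR). The largest decrease in the estimate was that of RCAN2, an inhibitor of calcineurin, with -1.34 (SE 0.85).

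**Figure D5:**
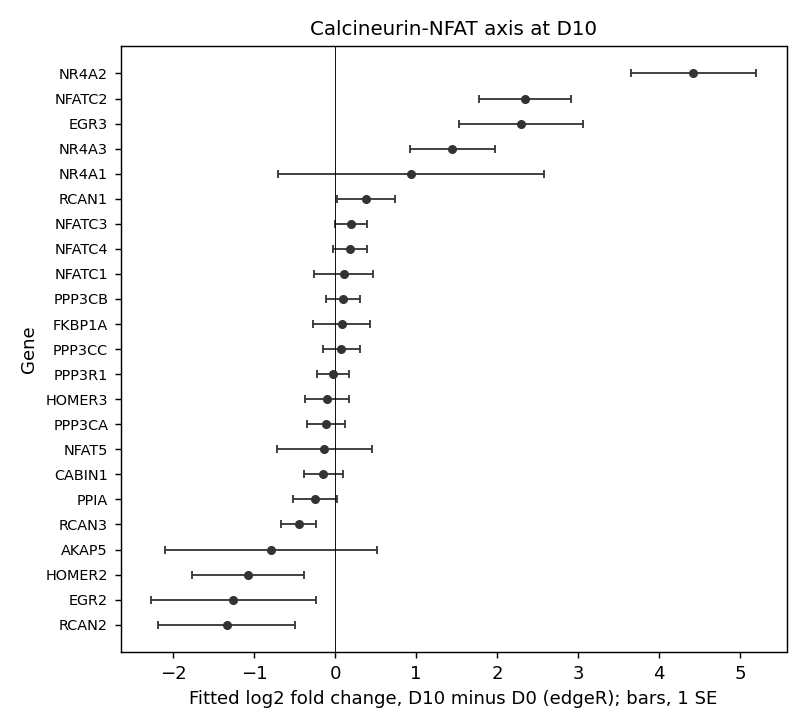
Fitted log2 fold change at D10 against D0 (edgeR, horizontal axis) for the 23 genes of the calcineurin and NFAT list, ordered by value, with bars of 1 SE. NR4A2 (4.43), NFATC2 (2.34) and EGR3 (2.30) stand to the right, and the calcineurin subunits lie between -0.12 and 0.096.

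The libraries had the markers of fibroblasts and lacked those of T cells. All 14 fibroblast markers were tested. Their summed CPM was 70356 and 56183 (D0), 54497 and 59059 (D4), 57258 and 62910 (D7) and 65140 and 27719 (D10). The sum was thus low in the D10 library of experiment 2 only, but it is carried by the most abundant markers. TOX had 1.74 CPM in both D10 libraries. Without the D10 library of experiment 2 the mean log2 change at D10 was -3.06 for TOX and -3.22 for LUZP2. By edgeR 0 of the 14 markers were called at D10. At an unadjusted p under 0.05, 2 were lower, against 1095 of all 13798 tested genes in either direction. The replicate block called 2 lower, PDGFRB and DCN, against 2.45% of all genes lower in that fit, and 0 higher. Both fell in each experiment. PDGFRB had 481 and 437 CPM at D0, 240 and 242 CPM at D4 and 236 and 120 CPM at D10. DCN went from 4340 and 3593 CPM at D0 to 2138 and 572 CPM at D10. DESeq2 called PDGFRB at D10 (adjusted p = 0.00585), against 2.59% of all genes. The replicate block called LUM lower at D7 (adjusted p = 0.0408, edgeR), against 1.25%. Of 16 T cell markers, 7 are in the table, none was tested, and the highest count in any library was 4, for HAVCR2. Of 17 glial markers, 6 are in the table, and CSPG4, which fibroblasts also express, was the 1 that was tested. Of 10 epithelial and endothelial markers, 5 were tested, and KRT18 was the 1 called by the replicate block at D10, against 4.99% of all genes (log2 fold change -0.82, adjusted p = 0.0220, edgeR). The part of the changed markers in the levels of TOX and LUZP2 was not tested.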

How the data were processed

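RNA of 8 recipient libraries was poly(A) selected and made into stranded libraries. The authors deposited whole-number read counts for each gene, and the submitters' processing notes list STAR 2.5, DESeq2 and the build GRCh38/hg38. The counting tool and its strand setting are not given in the sources used here. The table also holds normalized columns, which were not used. A header that reads DO was taken as D0. Of 27696 identifiers, 27588 (99.6%) matched GENCODE 29.

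Genes were filtered with filterByExpr (13798 left), scaled with TMM and fitted with edgeR 4.0.16 (glmQLFit, glmQLFTest, R 4.3.3) over all 8 libraries by group, with Benjamini-Hochberg adjustment and a threshold of 0.05. Log2 CPM used a prior count of 2. Percentages of D0 are ratios of CPM with 95% exact intervals. The labels give replicate numbers, and the paper states that the RNA came from 2 independent experiments. Libraries with the same replicate number were taken as the same experiment, which the labels do not state. Deviations from group means correlated across genes between these libraries, with r from 0.418 to 0.722 in all 6 pairs of groups. A replicate block was therefore fitted too, and DESeq2 1.42.0 as an alternative. The code was tested on simulated data. Figures used Python 3.11.15.

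The members and gene lists were chosen with earlier results of these data known. Named genes are the members, their relatives, neighbours within 1 Mb, the called or most changed genes of each list, the 5 genes most like each member, the genes called lower at D10, and up to 7 genes above and 3 below each member in the order of D4 falls.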

Additional observations from a re-analysis of the deposited data

How the results depend on the processing

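The direction of the changes of TOX and LUZP2 from D0 was the same under every alternative run (other scalings, other prior counts, a fit with the replicate block and leaving out each library), and the depth behind them limits the late values most, since LUZP2 had 10 and 8 counts at D10. DESeq2 size factors and library totals alone moved none of the values by more than the spread between the experiments. A prior count of 0.5 gave TOX -2.46 at D7. A prior count of 5 gave TOX -2.32 at D7 and -2.91 at D10, LUZP2 -2.01 at D7 and -3.05 at D10, and a LUZP2 share at D7 of 65.9%. The alternatives without a prior count and with a fit that holds the replicate block were chosen after seeing the data. Without a prior count TOX was at -2.47 at D7, LUZP2 at -3.62 at D10, and the LUZP2 share at D7 was 61.3%. The fit with the replicate block gave TOX -2.47 at D7 and a LUZP2 share at D7 of 61.6%. As a share of the fall in mean CPM, TOX had reached 85.5% at D4 and 92.2% at D7, and LUZP2 67.5% and 85.5%.

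Leaving out each library in turn gave log2 changes for TOX of -2.27 to -1.79 at D4, -2.49 to -2.33 at D7 and -3.14 to -2.98 at D10, and for LUZP2 of -1.54 to -1.19, -2.17 to -2.09 and -3.47 to -3.22. The share reached at D4 ranged from 58.8% to 74.4% for TOX and from 35.4% to 46.0% for LUZP2, and at D7 from 76.6% to 81.1% and from 61.2% to 66.0%.

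edgeR without a block called 0 genes of the calcineurin and NFAT list at D10. DESeq2 and the absence of a filter called 2 (NR4A2 and NFATC2), and the replicate block 3 (NR4A2, NFATC2 and EGR3). Leaving out each library gave 0 to 1, the 1 being NR4A2 without the D10 library of experiment 1. Of the neighbours, 0 were called, and DESeq2, no filter and the replicate block each called 1, AC090152.1. Of the HMG-box proteins, 0 were called at D10 under each alternative run. The cause of these differences was not tested.

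The difference between experiments did not pass the threshold for TOX or LUZP2 under any alternative run, all fitted with the replicate block. That of LUZP2 turned from 0.079 to -0.030 without the D4 library of experiment 1 (adjusted p = 0.942, edgeR) and to -0.044 without that of experiment 2 (adjusted p = 0.946, edgeR), with a range of -0.044 to 0.13, and that of TOX ranged from 0.12 to 0.25.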
